A study of Mus musculus with 8 samples.

Results

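The satellite repeat rows are 10 predicted genes of the mouse count table that lie over the A and T rich tandem repeat known as major, or gamma, satellite. They are Gm10800 on chromosome 2 and Gm26870, Gm10722, Gm11168, Gm10721, Gm10720, Gm10719, Gm10718, Gm10717 and Gm10715 on chromosome 9, and they are 10 of the 54146 rows. They were chosen by position and with their levels known: their counts in DMSO replicate 1 and olaparib replicate 2 drew attention to them, so those levels are given as a description. The cells were ID8-OR, an olaparib-resistant form of ID8, a mouse ovarian cancer line, and resistance is shared by all 4 groups. They were kept for 72 hours with DMSO (the solvent), olaparib (a PARP inhibitor), EZM8266 (an inhibitor of EHMT1 and EHMT2) or olaparib with EZM8266, called the combination. Each group has 2 libraries, 8 in all, and the sources used here give neither doses nor how resistance was obtained. For combination replicate 2 the treatment is written EZM8267, and its title decided its group. Whether replicates came from separate cultures is not stated in the labels. A p-value here therefore measures only how far these libraries spread, and that spread may be technical. In bulk RNA such as this, fewer cells with a transcript and less of it per cell cannot be told apart.

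Major satellite forms the pericentromeric heterochromatin of mouse chromosomes, the compact DNA beside each centromere. Its silencing rests on methylation of lysine 9 of histone H3: SUV39H1 and SUV39H2 place the trimethyl mark there, and the HP1 proteins (genes Cbx1, Cbx3 and Cbx5) bind it. EHMT1 (GLP) and EHMT2 (G9a), the targets of EZM8266, act as a pair that places mainly mono- and dimethylation on the same residue, largely outside the pericentromere. Satellite repeats can be transcribed from either strand, and the transcripts mostly stay in the nucleus.

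The sequences are shown because the rows share 1 repeat in 2 orientations. They were read 5′ to 3′ from the transcripts of GENCODE M21 on GRCm38, the assembly also called mm10. Capitals mark the 9-base motif TTCTCATTT or its reverse complement AAATGAGAA, which was picked because every one of the rows holds it. The lines give bases 1 to 234 of the Gm26870-202 transcript, the same stretch reverse complemented, and bases 1 to 240 of Gm10800-201 and of Gm10722-201.
Gm26870: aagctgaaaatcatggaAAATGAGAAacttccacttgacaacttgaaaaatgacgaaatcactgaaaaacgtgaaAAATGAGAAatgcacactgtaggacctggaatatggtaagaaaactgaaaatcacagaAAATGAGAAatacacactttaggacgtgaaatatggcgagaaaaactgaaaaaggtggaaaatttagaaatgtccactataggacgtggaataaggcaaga
Gm26870, reverse complement: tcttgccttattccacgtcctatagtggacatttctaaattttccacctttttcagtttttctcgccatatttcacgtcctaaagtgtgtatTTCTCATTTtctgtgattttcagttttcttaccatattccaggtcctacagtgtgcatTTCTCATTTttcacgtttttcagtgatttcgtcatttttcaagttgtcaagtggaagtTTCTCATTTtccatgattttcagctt
Gm10800: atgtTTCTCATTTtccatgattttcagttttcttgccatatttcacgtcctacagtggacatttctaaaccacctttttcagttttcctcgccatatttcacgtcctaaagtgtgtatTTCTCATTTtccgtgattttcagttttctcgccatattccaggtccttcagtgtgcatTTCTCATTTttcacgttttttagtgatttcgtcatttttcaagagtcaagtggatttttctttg
Gm10722: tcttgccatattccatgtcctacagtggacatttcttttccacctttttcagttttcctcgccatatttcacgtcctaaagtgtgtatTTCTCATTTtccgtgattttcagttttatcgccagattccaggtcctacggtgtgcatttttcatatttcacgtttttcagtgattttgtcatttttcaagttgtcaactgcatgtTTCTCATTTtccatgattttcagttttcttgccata

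Gm26870 is a long noncoding RNA on the minus strand at chr9:3000282-3038313, with 7 merged exons of 2692 bases in all. Its transcript repeats itself every 234 bases: at that shift 95.9% of positions were identical, against a median of 30.8% over all shifts. A shift of 58 bases gave 60.4%. The 234-base unit was 46.6% A, 18.4% T and 35% GC, with 5 CpG. The other 9 members align to the unit only as its reverse complement, at 91.4 to 95.1% identity over 98.5 to 100% of each transcript, leaving gaps aside. Gm10800 was 94.2% identical with 78 gap positions. The best shift of its transcript was 225 bases, with 56.3% of positions identical. Gm10722 had 65.2% at 234 bases and 66.1% at 415. The motif stood 7 to 9 times in the first listed transcript of each of these 9 rows and 15 times, as the reverse complement, in Gm26870-201. Searched on both strands of the first 650 bases of 95943 annotated transcripts, it was found in 1135 (1.18%), and 26 held it 4 or more times.

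**Figure D1:**
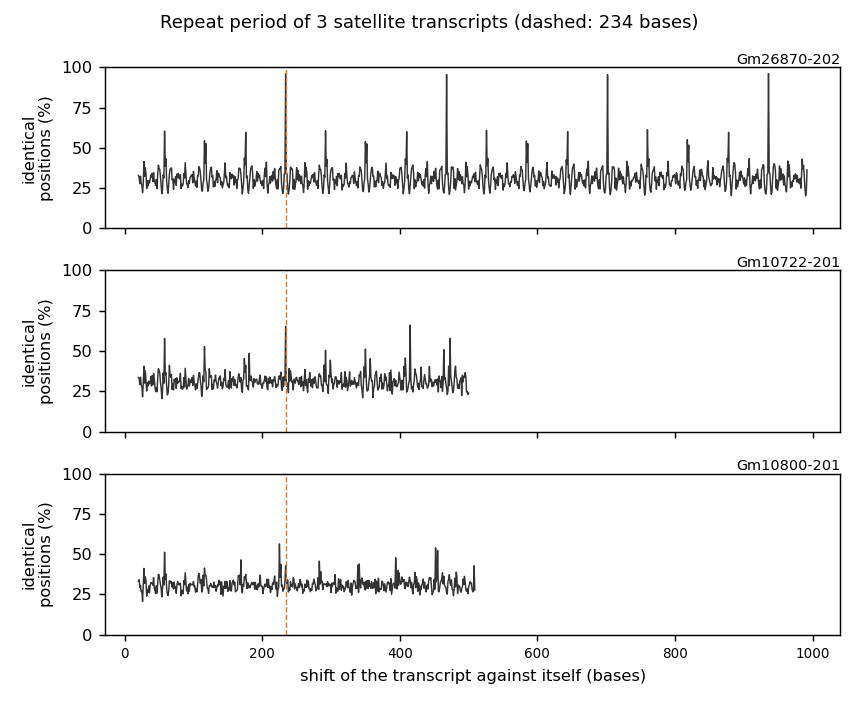
Percent of positions that are identical (y axis) when a transcript is shifted against itself by the number of bases on the x axis, for Gm26870-202, Gm10722-201 and Gm10800-201, with the dashed line at 234 bases. Gm26870 peaks at 95.9% at 234 bases and again at multiples of it, while Gm10722 reaches 65.2% there and Gm10800 peaks at 225 bases with 56.3%.

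The annotation places Gm10800 on the minus strand at chr2:98666547-98667301, with 660 exon bases. The 8 plus-strand rows follow one another on chromosome 9: Gm10722 at chr9:3000922-3002330, Gm11168 at chr9:3003346-3006948, Gm10721 at chr9:3013140-3014344, Gm10720 at chr9:3015654-3017210, Gm10719 at chr9:3017408-3021593, Gm10718 at chr9:3023547-3025218, Gm10717 at chr9:3025417-3033289 and Gm10715 at chr9:3036877-3038316. All of them lie within the body of Gm26870 or, for Gm10715, end 3 bases beyond it. Exons of Gm26870 overlap those of 5 of them on the other strand, by 155 bases (Gm10718) to 299 bases (Gm10715). The window holds 11 rows: the 9 members, Gm17535, which was not in the list of members, and the microRNA gene Mir101c, with 0 counts in every library. A fragment was counted for every gene it overlapped, and 0 fragments were set aside as multi-mapping, from alignments whose names hold the word uniq. Such a name usually marks unique alignments, and fragments that matched several copies equally well would then be absent, so the level of a row is that of the fragments assigned to it and not of the satellite as a whole.

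The libraries summed to 973382 to 1680974 counts, from 19743299 to 30329847 fragments of which 4.54 to 5.4% were assigned, and 3 counts, taken as the floor, were 1.78 to 3.08 CPM (counts per 1000000 counts of the library). Fragments counted here lay mostly opposite to the strand of expressed genes. Of the counts of Rmrp, an abundant noncoding RNA, and of Ccdc107, whose exons overlap it on the other strand, the Rmrp row held 1.04 to 1.68%. A row of the satellite is therefore read here as fragments whose first read lay on its strand, with no statement on the strand of the RNA. Of 8 markers of ID8 or ovarian surface epithelium all had counts in at least 1 library (60.6 to 121 CPM summed). The Krt18 row was at 10 to 40 counts and the Wt1 row at 13 to 58. Others of the list were near the floor, with Krt7 at 0 to 1 counts, Upk3b at 0 to 7 and Msln at 2 to 9. Of 5 immune markers 3 had counts, at 0.62 to 10.8 CPM summed with Ptprc at 0 to 2 counts, the 2 endothelial markers had 0 to 3.09 CPM, and the 3 fibroblast markers had 46.2 to 155 CPM.

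Gm10800 was by far the most abundant satellite row. It held 22501 CPM in DMSO replicate 1 and 706 CPM in DMSO replicate 2. The olaparib replicates 1 and 2 held 1031 and 18644 CPM, the EZM8266 replicates 921 and 4394 CPM, and the combination replicates 1071 and 1784 CPM. DMSO replicate 1 and olaparib replicate 2 were high, each in a different group, EZM8266 replicate 2 came next, and the other 5 libraries held at most 1784 CPM. The 2 DMSO libraries thus differed by 31.9-fold, the olaparib libraries by 18.1-fold, the EZM8266 libraries by 4.77-fold and the combination libraries by 1.67-fold. The DMSO group had a mean of 11604 ± 15412 CPM, the olaparib group 9837 ± 12454, the EZM8266 group 2657 ± 2456 and the combination group 1428 ± 505 (SD, n = 2 each). The SD exceeded the mean in the DMSO and olaparib groups, and the range of the EZM8266 and combination libraries lay inside the range of the DMSO libraries.

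**Figure D2:**
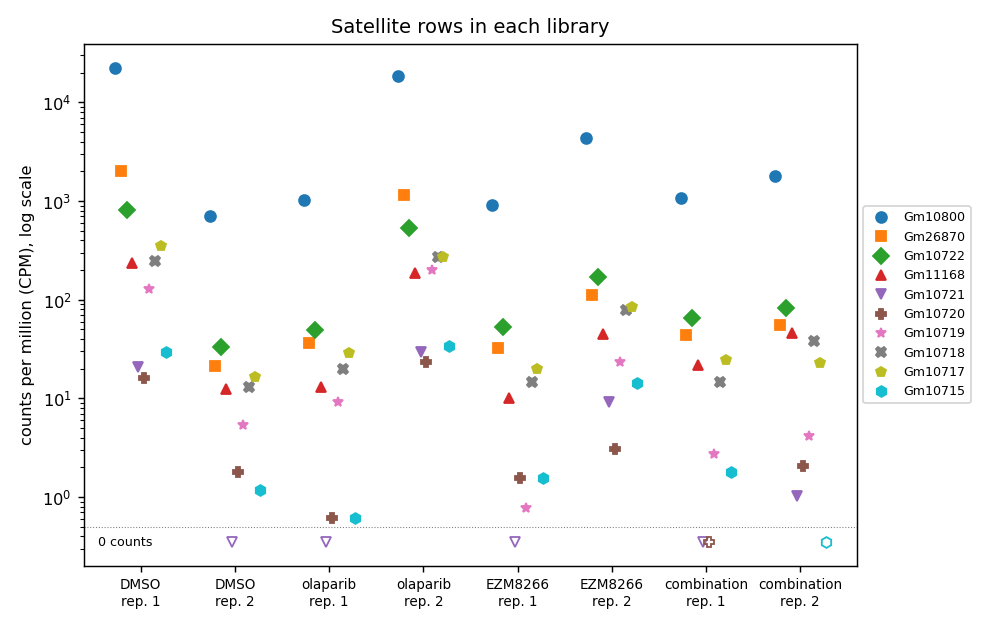
CPM (y axis, log scale) of the 10 satellite rows in each of the 8 libraries (x axis), 1 symbol a row, with hollow symbols at the foot for 0 counts. Gm10800 stands at the top of every library, and all 10 rows have their 2 highest values in DMSO replicate 1 and olaparib replicate 2.

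Gm26870, the only minus-strand row of the chromosome 9 window among the members, held 2016 CPM in DMSO replicate 1 and 21.4 CPM in DMSO replicate 2. In the olaparib libraries it was at 36.5 and 1153 CPM, in the EZM8266 libraries at 32.5 and 112 CPM, and in the combination libraries at 43.5 and 55.5 CPM. The same libraries were high, and the ratio within a group was wider than for Gm10800: 94.2-fold in the DMSO group and 31.6-fold in the olaparib group. Its EZM8266 libraries differed by 3.45-fold and its combination libraries by 1.28-fold.

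Gm10722, at the proximal end of the window, held 805 and 33.3 CPM in the DMSO libraries and 49.5 and 536 CPM in the olaparib libraries. The EZM8266 libraries held 52.5 and 168 CPM of it, and the combination libraries 65.2 and 83.2 CPM. Its highest and lowest library were again both DMSO libraries. Gm10717, the row with the most exon bases (3856), held 370 and 28 counts in the DMSO libraries, 47 and 324 in those of olaparib, 26 and 83 in those of EZM8266 and 27 and 22 in those of the combination. Gm10718 held 263, 22, 32, 328, 19, 77, 16 and 37 counts in the same order, and Gm11168 held 246, 21, 21, 226, 13, 44, 24 and 45. In Gm11168 the second combination library (45 counts, 46.2 CPM) was level with the second EZM8266 library (44 counts, 45.2 CPM). In Gm10717 the second combination library had the fewest counts. By CPM (22.6) it lay above DMSO replicate 2 (16.7 CPM) and EZM8266 replicate 1 (20.1 CPM).

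Gm10719 held 135, 9, 15, 240, 1, 23, 3 and 4 counts in that order, so its highest library was olaparib replicate 2 and its lowest EZM8266 replicate 1. The remaining 3 rows were near the floor outside DMSO replicate 1 and olaparib replicate 2. Gm10721 had 22 and 36 counts in those libraries, 9 in EZM8266 replicate 2, 1 in combination replicate 2 and 0 in the other 4. Gm10720 had 17 and 28 there and 0 to 3 in the other 6 libraries. Gm10715 had 31 and 41 there, 14 in EZM8266 replicate 2 and 0 to 2 in the other 5. A count of 0 allows up to 3 counts, counting error only.

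The order of the members in a library was steadier than their level. Per kilobase of exon, Gm10800 ranked first in every library and Gm10722 second in every library, with means of 9669 and 344 CPM per kb over the 8 libraries. Gm26870 (161 CPM per kb) was at rank 3 in DMSO replicate 1 and olaparib replicate 2, and Gm10718 (128 CPM per kb) was at rank 3 in each of the remaining libraries. Gm11168 (37.6), Gm10717 (26.5) and Gm10719 (25.9 CPM per kb) exchanged places at ranks 4 to 9, mostly below them. In combination replicate 2, Gm11168 was at rank 4 and Gm26870 at rank 5. Gm10721 (11.4), Gm10715 (11.1) and Gm10720 (9.04 CPM per kb) held ranks 7 to 10. Over the libraries the ranges of neighbours in this order overlapped throughout, apart from that of Gm10722 (51.2 to 1237 CPM per kb) and Gm10800 (1069 to 34093), which overlapped only between the top of the first and the bottom of the second. DMSO replicate 1 was the highest library for 5 members and olaparib replicate 2 for the other 5, namely the low rows Gm10721, Gm10720 and Gm10715 with Gm10719 and Gm10718. EZM8266 replicate 2 was at place 3 for 9 members, and combination replicate 2 for Gm11168.

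Together the members held 2.64% of all counts of DMSO replicate 1 and 2.13% of olaparib replicate 2. They held 0.493% of EZM8266 replicate 2, 0.204% of combination replicate 2 and 0.0811 to 0.125% of the other 4 libraries. The 4 members averaging 100 counts or more differed by 4.30 to 6.48 on the log2 scale between the DMSO libraries. They differed by 3.16 to 4.94 between the olaparib libraries, by 1.66 to 2.25 between those with EZM8266, and by 0.09 to 0.74 between those with the combination. For the 1325 other rows as abundant, the median difference was 0.14 to 0.31 and the 99th percentile 0.75 to 1.29 in the 4 groups, so the combination libraries were the only pair of replicates in which these members stayed below that percentile.

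Further copies of the repeat were sought by sequence, which the choice of members had not used. A search of the annotated transcripts of 54006 rows for those with at least 10% of their 12-base words in the 234-base unit, on either strand, returned 13 rows. They were the 10 members, Gm17535 (chr9:3034599-3035805), Gm10801 (chr2:98662237-98664083) and Gm21738 (chr14:19415857-19418930). Gm17535 had 24, 1, 2, 60, 11, 17, 3 and 3 counts in the order DMSO, olaparib, EZM8266 and combination. Gm10801, which neighbours Gm10800 on the other strand, had 1235, 68, 90, 621, 73, 128, 84 and 58. Gm21738 had 3411, 250, 284, 3147, 233, 819, 251 and 373. In each of these 3 rows, as in the members chosen with this pattern known, DMSO replicate 1 and olaparib replicate 2 were the 2 highest libraries by CPM. The same was true of 327 (3.91%) of the 8369 rows that lack the repeat and average 5 counts or more. Gm17535, Gm10801 and Gm21738 were also on a list of satellite candidates by name, so they were not new to the search. Gm10714 (0 to 2 counts), Gm28438 (212 to 474 counts) and Gm37283 (0 counts), from the same list, did not align to the unit. Gm28438 had 298 and 474 counts in the DMSO libraries.

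Likeness of pattern was measured as the root mean square difference of centred log2 CPM over the 8 libraries from the mean profile of the 4 abundant members. Gm21738 (0.28) and Gm10801 (0.35 on the log2 scale) were the nearest of 1325 other rows averaging 100 counts or more. The next were the mitochondrial tRNA gene mt-Tq (1.57), Gm29233 (1.59), Wiz (1.6), Gm2065 (1.6), Dmtf1 (1.62), G430095P16Rik (1.62), Rbm4b (1.63) and Gm16185 (1.63), close to the median of 1.78, so only the 2 further satellite rows resembled the members. Beyond the window, the first rows averaging 10 counts or more were Yap1 (7 to 18 counts) and Gm20416 (241 to 393 counts), and neither had its highest CPM in DMSO replicate 1 and olaparib replicate 2 together. On the distal side of Gm10800 the next row, Gm29235, had 0 counts.

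The balance between the orientations was not used in choosing the rows. Gm26870 held 52.4% (Wilson 95% interval 50.9 to 53.9%) of the counts of the 9 chromosome 9 members in DMSO replicate 1 and 42.7% (41 to 44.4%) in olaparib replicate 2. Its share was 20.3% (15.1 to 26.9%) in DMSO replicate 2 and 23.1% in olaparib replicate 1. It was 24.3 and 20.7% in the EZM8266 libraries and 25.0 and 22.0% in the combination libraries. The intervals of these 6 libraries overlapped one another and lay below those of the other 2. EZM8266 replicate 2, next after these in satellite level, had a share of 20.7% (17.5 to 24.4%). Gm26870 was also higher in DMSO replicate 1 and olaparib replicate 2 relative to Gm10800, which holds the repeat in the other orientation: its share of their summed counts was 8.22% and 5.83%, where the remaining libraries had 2.49 to 3.9%. Rows in the orientation of Gm10800 also shifted against it. The like share of Gm21738 was 12.6 and 12.3% in these libraries and 14.6 to 17.7% in the others. That of Gm10801 was 4.94 and 2.68%, and 2.91 to 6.64% in the others. Gm26870 is the only row in its orientation, so a shift of this row and one of the orientation cannot be told apart.

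**Figure D3:**
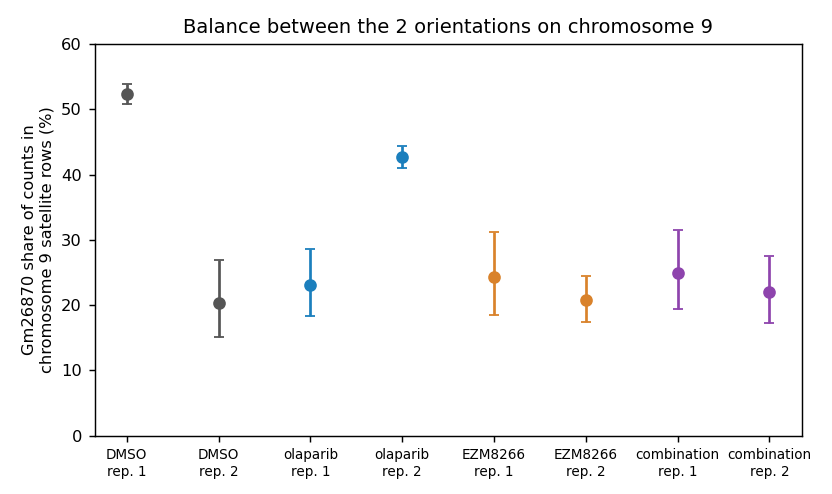
Share (%) of the counts of the 9 chromosome 9 satellite rows that fell on the minus-strand row Gm26870 (y axis), by library (x axis), with Wilson 95% intervals that cover counting error only. The share was 52.4% in DMSO replicate 1 and 42.7% in olaparib replicate 2 and lay between 20.3 and 25.0% in the other 6 libraries.

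The plus-strand share of the chromosome 9 counts was 77.0 ± 1.99% in the libraries with EZM8266 and 65.4 ± 15.5% in those without it (SD, n = 4 each). The difference of 11.6 percentage points had an exact permutation p of 0.343, two-sided, where 4 against 4 can reach 0.0286. Without DMSO replicate 1 and olaparib replicate 2 the difference was -1.29 points. The share of Gm10800 among all member counts was 87.5 ± 1.24% with EZM8266 and 86.6 ± 0.854% without it, a difference of 0.890 points with an exact permutation p of 0.343. The Benjamini-Hochberg adjusted value over these 2 tests was 0.343 for both. The labels number the libraries that received EZM8266 33 to 36 and those that did not 41 to 44, so the compound and whatever goes with these numbers cannot be told apart here.

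Against DMSO, the fitted values of the satellite rows with EZM8266 and with the combination lay below 0, but no member passed the test. Counts were fitted with edgeR's quasi-likelihood test over 6379 rows that passed the filter on low counts. The 10 members passed it, but Gm10721, Gm10720 and Gm10715 reached its level in at most 1 library beyond DMSO replicate 1 and olaparib replicate 2, so they had to be high there to be tested. Directions and medians are therefore given, as a description, over the other 7. Members called at an adjusted p under 0.05 were 0 of 10 for EZM8266 against DMSO, beside 0.204% of all tested rows. They were 0 of 10 for the combination against DMSO, beside 0.219%, and 0 of 10 for the combination against olaparib, beside 0.0941%. For olaparib against DMSO and the combination against EZM8266 they were 0 of 10, beside 0% of all rows. In the order EZM8266, combination against DMSO, combination against olaparib, olaparib, and combination against EZM8266, edgeR gave 1, 5, 5, 0 and 0 of the 10 members with an unadjusted p under 0.05, beside 5.72, 4.89, 3.81, 1.83 and 1.54% of all tested rows. DESeq2 called 0 members and gave 1, 2, 1, 0 and 0 at that limit, beside 2.08, 2.08, 1.41, 0.266 and 0.345% of the rows. Among the 5 that edgeR gave for the combination against olaparib was Gm10720 (unadjusted p = 0.0466). That row had to be high in DMSO replicate 1 and olaparib replicate 2 to be tested.

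For EZM8266 against DMSO, edgeR put Gm10800 at -2.22 ± 1.22 on the log2 scale (SE; adjusted p = 0.854) and Gm26870 at -3.94 ± 1.49 (adjusted p = 0.797). All 7 of these members lay below 0, with a median of -2.22, beside -0.02 over all tested rows. For the combination against DMSO, the log2 fold change was -3.06 ± 1.26 for Gm10800 and -4.37 ± 1.54 for Gm26870 (edgeR adjusted p = 0.968 and 0.737), with 7 of 7 below 0, a median of -2.91 and one of -0.02 over all rows. Against olaparib, the combination had 7 of 7 below 0 and a median of -2.6, beside -0.0082 over all rows, with Gm10800 at -2.76 ± 1.24 and Gm26870 at -3.53 ± 1.52. These 3 comparisons share libraries and are set side by side only. Olaparib against DMSO, in which each group holds 1 of the high libraries, had a median of -0.3, with 2 above and 5 below 0, beside -0.011 over all rows. The combination against EZM8266 had a median of -0.73, beside -0.0029 over all rows, with Gm11168 (0.42 ± 1.28) the only one above 0.

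In the comparisons other than olaparib against DMSO, the sign rested on 1 library. Without DMSO replicate 1, EZM8266 against DMSO was above 0 for 7 of the 7 members (median 1.61) and the combination for 6 of 7 (median 0.99). Without olaparib replicate 2, the combination against olaparib was above 0 for 5 of 7 (median 0.2), and without EZM8266 replicate 2 the combination against EZM8266 was above 0 for 7 of 7 (median 0.69). Olaparib against DMSO had no common sign with all libraries, and its direction moved with each library of the 2 groups. It was above 0 for 7 of 7 without DMSO replicate 1 (median 3.4) or olaparib replicate 1 (median 0.59). It was above 0 for 0 of 7 without DMSO replicate 2 (median -1.29) or olaparib replicate 2 (median -2.84). In these fits the lone library of a group was taken to vary like the other groups. With DMSO replicate 1 and olaparib replicate 2 both left out, 8 members passed the filter, Gm10721 and Gm10720 not being among them and Gm10715 through EZM8266 replicate 2 alone. Over the other 7, EZM8266 against DMSO was above 0 for 7 (median 1.6). Gm10800 was then at 1.82 ± 0.55 on the log2 scale (edgeR adjusted p = 0.861), Gm26870 at 1.62 ± 0.54 and Gm10722 at 1.61 ± 0.48. Members called were 0 of 8 in each of the 5 comparisons, beside 0.0415% of all rows for EZM8266 and 0.0692% for the combination against DMSO, 0.0692% for the combination against olaparib, 0.0138% for olaparib and 0% for the combination against EZM8266. At an unadjusted p under 0.05 edgeR gave 5 of the 8 when EZM8266 was set against DMSO, beside 4.08% of all rows, 2 when the combination was, beside 3.69%, and 0 in the other 3 comparisons, beside 0.65 to 2.05%. The libraries left out were picked for their satellite level, so neither sign is supported by this. Without a filter on low counts, where 27896 rows were tested, 7 members were called lower with EZM8266, beside 0.151% of all rows called in either direction, and the SE of Gm10800 fell from 1.22 to 0.11 on the log2 scale while its counts stayed as they were.

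**Figure D4:**
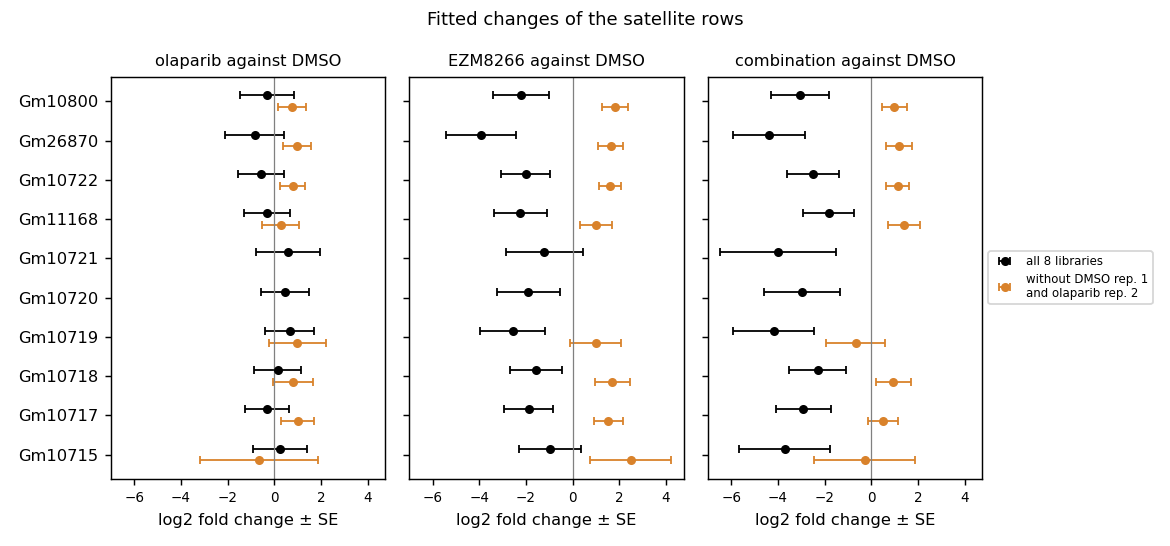
Log2 fold change with its SE (x axis) of each satellite row (y axis) for olaparib, EZM8266 and the combination against DMSO, fitted with all 8 libraries (black) and without DMSO replicate 1 and olaparib replicate 2 (orange; Gm10721 and Gm10720 did not pass the filter there). For EZM8266 the black points lie below 0 and the orange points above 0, of which Gm10721, Gm10720 and Gm10715 (black) and Gm10715 (orange) were tested only through the libraries in which they were high.

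The spread behind these values was among the widest in the table. The rows were chosen with their high levels in DMSO replicate 1 and olaparib replicate 2 known, so a wide spread follows from the choice. The biological coefficient of variation edgeR gave was 0.663 (Gm10717) to 0.839 (Gm26870) over the 7 members used for directions. The median over all tested rows was 0.180. Gm10720 (0.714), Gm10715 (0.864) and Gm10721 (1.11) were tested only through the libraries in which they were high. The values of the 7 lie from the 99.8th percentile upward, and that of Gm10721 is the top of the table. The median SE of the log2 fold changes of all 10 members was 1.05 to 1.48 in the 5 comparisons, and that of all rows 0.38 to 0.41.

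Genes of the silencing machinery were read from a list of 41 genes for H3K9 methylation and heterochromatin, chosen with earlier results of these data known. It had 40 rows, of which 20 were tested, and edgeR called 0 in each of the 5 comparisons. The share of all tested rows called was 0 to 0.219%. These rows lie on the strand that takes few of the counts, so a lack of change does not follow. Of 13 rows that overlap exons of a listed gene from the other strand, 11 were tested and edgeR and DESeq2 called 0, with a smallest adjusted p of 0.176 (edgeR) for EZM8266 against DMSO and at most 1 row a comparison at an unadjusted p under 0.05. At the same unadjusted limit, edgeR gave 1 of the 20 rows for EZM8266 and 1 for the combination against DMSO, beside 5.72 and 4.89% of all rows, and 0 in the other 3 comparisons, and DESeq2 called 0 and gave the same numbers. Wiz, a zinc finger partner of EHMT1 and EHMT2, had the most counts (171 to 304 over the libraries). Kdm1a, a lysine demethylase, had 54 to 107, Dnmt1, the maintenance DNA methyltransferase, 29 to 93, and Lmna, which encodes lamin A and C, 12 to 68. The drug target rows were thin, with Ehmt1 at 1 to 10 counts and Ehmt2 at 7 to 30 counts. With EZM8266, Ehmt2 was at -1.4 ± 0.48 on the log2 scale (edgeR adjusted p = 0.739), and the row lies on the strand that takes few of these counts. Of 20 centromere and kinetochore genes, 10 rows were tested, and edgeR and DESeq2 called 0 in any comparison, with 0 at an unadjusted p under 0.05.

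Other properties of the libraries went part of the way with the satellite level. Thinned to 900000 counts each, DMSO replicate 1 had 18548 rows with a count and olaparib replicate 2 had 17339, against 14984 to 16195 in the other 6. EZM8266 replicate 2, next in satellite share, had 15558, fewer than DMSO replicate 2 (15653), EZM8266 replicate 1 (16140) and combination replicate 2 (16195). The 1730 olfactory and vomeronasal receptor rows, genes that an ovarian line is not known to use, summed to 175 CPM in DMSO replicate 1 and 234 CPM in olaparib replicate 2. They summed to 168 CPM in EZM8266 replicate 2, 144 CPM in combination replicate 2 and 81.5 to 126 CPM in the other 4. The share of the Rmrp row among the Rmrp and Ccdc107 counts was 1.24% and 1.42% in the 2 libraries rich in satellite, inside the range of the others. Gm42418, a predicted gene over a ribosomal RNA repeat, was lowest in DMSO replicate 1, olaparib replicate 2, EZM8266 replicate 2 and combination replicate 2. These libraries have the highest satellite shares. The DMSO libraries held 2586 and 5146 CPM of it and those of olaparib 3492 and 2897 CPM. Those of EZM8266 held 3661 and 1816 CPM, and those of the combination 3436 and 2621 CPM. From the same list, AY036118, Rn7sk, Rn7s2 and Rmrp were also lower in the libraries with the highest satellite shares than in any other. Gm26917, Rpph1, Rn7s1, Terc, Malat1 and Neat1 did not split the libraries in this way. The part of these measures in the satellite values was not tested.

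**Figure D5:**
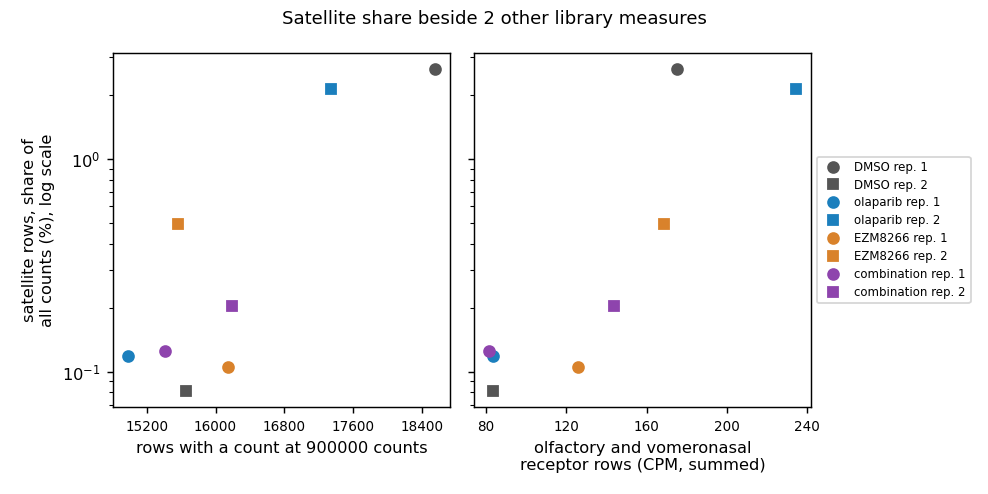
Share of all counts in the 10 satellite rows (y axis, %, log scale) against the number of rows with a count at 900000 counts (left) and against the summed CPM of olfactory and vomeronasal receptor rows (right), 1 point a library. DMSO replicate 1 (2.64%) and olaparib replicate 2 (2.13%) have the most rows with a count and the highest receptor sums, with EZM8266 replicate 2 (0.493%, 168 CPM) next in both the satellite share and the receptor sum.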

How the data were processed

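The authors deposited 1 table of whole-number counts of fragments per gene for the 8 libraries, not normalized. The submitters' processing notes name HISAT2 2.1.0 and Subread 1.6.2, with the build mm10, beside FastQC 0.11.8 and MultiQC 1.7 for read quality. In featureCounts 1.6.2 the authors, per the file headers, counted read pairs over exons of GENCODE M18 genes with strand setting 1 and let a fragment count for each gene it overlapped. Symbols and sequences came from GENCODE M21 on GRCm38, which named 54079 of 54146 rows. Groups were taken from the sample titles.

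CPM are counts per 1000000 counts of the library. Rows were tested in edgeR 4.0.16 under R 4.3.3 (quasi-likelihood, TMM, filterByExpr with a minimum count of 10 and total of 15, 1 fit of 4 group means), with p-values adjusted by Benjamini-Hochberg over all tested rows and called under 0.05. The SE is the log2 fold change divided by the root of its F. The fit was tested on simulated data. Shares have Wilson 95% intervals, and intervals and floors cover counting error only. Shares with and without EZM8266 were compared by exact permutation over libraries. Transcripts were aligned to a tandem array of the repeat unit with Biopython 1.88 (match 2, mismatch -3, gap opening -5, gap extension -2). DESeq2 1.42.0 and other filters, scalings, blocks and left-out libraries were the alternatives.

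The members, the gene lists and the tests were chosen with earlier results of these data known. The rule for named rows takes all members, the other rows of the chromosome 9 window and a list of satellite candidates by name, up to 10 abundant rows nearest in pattern, the neighbouring rows, the most abundant 4 rows of the heterochromatin list with Ehmt1 and Ehmt2, and Rmrp with Ccdc107. Gm42418 and the rows named beside it come from a list of structural RNA rows used for levels only. They were described after their values were seen. So were the Krt18, Wt1, Krt7, Upk3b, Msln and Ptprc rows from the marker lists. Beyond the counts, no depth was available per exon, so where in a row the fragments lie was not analysed here.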

Additional observations from a re-analysis of the deposited data

Results flagged for a closer look

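Among the 4 libraries that received EZM8266 (EZM8266 and combination), EZM8266 replicate 2 stood far from the others for 4 satellite rows by Dixon's gap test at the 95% level. Gm10717 was at 85.3 CPM there and the next library at 24.5 CPM. Gm10719 was at 23.6 CPM, with 4.11 CPM next, Gm10715 at 14.4 CPM, with 1.81 CPM next, and Gm10721 at 9.25 CPM, with 1.03 CPM next. In all, 28 sets of 4 libraries were examined, and at this level chance alone marks about 5% of sets of normally distributed values. The CPM were not transformed, so the rate for these sets is not known. The next values of Gm10715 and Gm10721 stand for 2 and 1 counts, below the floor of 3. Both rows passed the filter on low counts only through libraries in which they were high. The 4 rows hold the same repeat and share the library, so they are not separate observations. In that library the members together held 0.493% of all counts and the receptor rows 168 CPM, and the part of any library property in these values was not tested.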

How the results depend on the processing

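Results were recomputed with DESeq2, RLE scaling, unscaled totals, TMM without the members, 2 other filters, a replicate block, only the groups compared, and libraries left out. Of 878 recomputed log2 fold changes of members, 747 kept their sign and their side of the threshold, 82 changed sign and 49 passed the threshold only under the other setting. The 878 include a replicate block with the DMSO numbers crossed, added after seeing the data, and the rows Gm10721, Gm10720 and Gm10715. The 49 came from that block, from the fit without a filter on low counts and from unscaled totals. Members called, 0 in every comparison, remained 0 with libraries left out (0 to 0) and under DESeq2, RLE scaling and the filter of 1 CPM in 4 libraries. Without a filter on low counts the members called were 1 for olaparib, 7 for EZM8266 and 9 for the combination against DMSO, 9 for the combination against olaparib and 1 against EZM8266, beside 0.0287, 0.151, 0.161, 0.151 and 0.043% of all rows. With unscaled totals 1 member, Gm26870, was called for the combination against DMSO, beside 0.345% of all rows. The replicate block called 0 members in each comparison, beside 0 to 0.235% of all rows. Same-numbered libraries deviated in opposite directions where DMSO was 1 of the groups (correlations of -0.31, -0.32 and -0.15) and together elsewhere (0.22 to 0.29), so the numbers were not taken to pair the samples. A replicate block with the DMSO numbers crossed, added after seeing the data, called 6, 8 and 7 members for EZM8266 against DMSO, the combination against DMSO and the combination against olaparib, beside 1.32, 1.14 and 0.737% of all rows. Crossing puts DMSO replicate 1 in the same block as olaparib replicate 2, the libraries whose satellite level led to the members. The block then takes up the spread of the members, whose median SE for EZM8266 against DMSO fell from 1.27 to 0.39. These calls are therefore no support for a difference. Under the replicate block with the numbers as labelled, the log2 fold change of Gm10718 for olaparib against DMSO was -0.45 and that of Gm10715 was -0.073, against positive values without it. The cause was not tested in any of these. The share test with only members that share no exon bases with another could not be run, since it leaves plus-strand rows alone. With libraries left out, the plus-strand difference ran from -1.29 to 16.4 points, the lowest without DMSO replicate 1 and olaparib replicate 2. The log2 fold changes whose sign changed with libraries left out ranged as follows. For olaparib against DMSO these were -3.27 to 3.74 (Gm10800), -4.57 to 4.72 (Gm26870), -2.84 to 3.07 (Gm10722), -2.96 to 2.92 (Gm11168), -6.57 to 7.14 (Gm10721), -3.36 to 2.58 (Gm10720), -2.55 to 4.18 (Gm10719), -2.45 to 3.40 (Gm10718), -2.39 to 3.10 (Gm10717), -4.11 to 3.66 (Gm10715). In the fits of EZM8266 against DMSO they were -3.73 to 1.82 (Gm10800), -5.03 to 1.62 (Gm26870), -3.04 to 1.61 (Gm10722), -3.59 to 0.99 (Gm11168), -6.52 to 5.35 (Gm10721), -2.88 to 0.23 (Gm10720), -6.21 to 0.98 (Gm10719), -3.15 to 1.69 (Gm10718), -3.20 to 1.52 (Gm10717), -3.13 to 2.48 (Gm10715). With the combination against DMSO they were -4.01 to 0.99 (Gm10800), -5.36 to 1.20 (Gm26870), -3.45 to 1.15 (Gm10722), -2.81 to 1.40 (Gm11168), -6.52 to 2.55 (Gm10721), -3.29 to 0.96 (Gm10718), -3.89 to 0.50 (Gm10717). For the combination against olaparib the range was -3.66 to 0.22 (Gm10800), -4.48 to 0.21 (Gm26870), -2.79 to 0.35 (Gm10722), -2.42 to 1.12 (Gm11168), -7.13 to 2.51 (Gm10721), -6.82 to 0.36 (Gm10720), -3.34 to 0.14 (Gm10718), -7.36 to 0.38 (Gm10715). In the combination against EZM8266 it was -1.54 to 0.69 (Gm10800), -1.08 to 0.68 (Gm26870), -1.09 to 0.57 (Gm10722), -0.34 to 1.80 (Gm11168), -5.33 to 2.56 (Gm10721), -2.67 to 2.07 (Gm10719), -1.53 to 0.87 (Gm10718), -1.74 to 0.32 (Gm10717). With 2 libraries a group, 1 library can set the sign of a group difference, and rows near 3 counts give no usable ratio.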
